A study of Mus musculus with 23 samples.

Results

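Subthreshold social defeat under a GFP vector was examined by setting 8 libraries of stressed mice (GFP stress) against 5 libraries of unstressed mice (GFP control). These are 13 of the 23 libraries of the series, and each was placed by the group in its title. RNA-seq of polyadenylated RNA was made from the orbitofrontal cortex (OFC) of wild-type male C57BL/6J mice aged 8 weeks. Mice of both groups, controls included, carried AAV6-GFAP-GFP, a viral vector in which the promoter of the astrocyte gene Gfap drives a green fluorescent protein. The vector was injected into the OFC on day 0. On day 21 the stress group met the subthreshold defeat and the control group a control procedure. Between days 22 and 27 both groups were tested for social interaction, preference for sucrose and behaviour in a forced swim, so every control mouse had also met the swim. Infected tissue was cut out on day 28, and the labels name no sorting of cells. The other 10 libraries, 5 control and 5 stress, carried AAV6-GFAP-ZBTB7A under the same schedule. They enter the fit and 1 comparison here. One label field names the stress for every library, controls included, so the groups rest on the titles and the field for the stress condition. The labels do not say that each library came from a different mouse, so p-values measure the spread between libraries, which may in part be technical.

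Subthreshold defeat is a shortened form of social defeat, used to ask whether a manipulation makes mice more sensitive to a mild stressor. Stress hormones act in cortex through the glucocorticoid receptor Nr3c1 and the mineralocorticoid receptor Nr3c2, while recent neuronal firing is read from immediate early genes such as Fos and Npas4. A dissected block of ventral frontal cortex holds neurons, astrocytes, myelinating oligodendrocytes, microglia and vessels. The striatum, the septum, the olfactory areas and the ventricles with their choroid plexus lie near it, and their marker genes show how much of such tissue an RNA sample reflects. In bulk RNA, fewer cells of a type and less RNA per cell cannot be told apart.

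The 13 libraries held 13.4 to 51.9 M recovered reads, with a median of 27.4 M in GFP control and 15.5 M in GFP stress. Pairwise correlations of log2 values among them ran from 0.965 to 0.991 across genes, which are not independent replicates. These mice did not carry the ZBTB7A vector. Their own Zbtb7a gene stood at 3834 ± 629 normalized counts in GFP control (SD, n = 5) and 3934 ± 251 in GFP stress (n = 8). Slc17a7, the vesicular glutamate transporter of cortical excitatory neurons, was present in all 13 libraries at 22608 to 57296 normalized counts. Library numbers pass through the 4 groups in 3 runs, and differences within the runs are given where they bear on a result. Run 1 holds GFP control 1 and 2 and GFP stress 3, 4 and 5. Run 2 holds GFP control 10 and 11 and GFP stress 12 and 13. Run 3 holds GFP control 19 and GFP stress 20, 21 and 22, so its differences rest on that control alone. Several libraries stood apart. The level of striatal genes was far below the rest in GFP stress 5, 12, 20 and 21, and choroid plexus genes were highest in GFP control 1 and 10. Values without them are given beside the main results on these tissues. The fit without GFP control 1 and 10 was chosen after the data were seen. That without GFP stress 5, 12, 20 and 21 also leaves out ZBTB7A control 6, which was far above the rest in striatal level, and is called here the fit without the 5 far libraries.

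No gene passed the test. Values are the deposited counts after scaling by library size factors (normalized counts). A gene was tested when it reached 10 in at least 5 of the 23 libraries, which left 16385 of 27178 genes. The log2 difference is the mean of log2(normalized count + 1) in GFP stress minus that in GFP control, a scale that understates the change of low genes. In limma, 0 had an adjusted p under 0.05 (0%), and the smallest adjusted p was 0.320. With no adjustment, 1839 genes (11.2%) had a p under 0.05, of which 1304 (7.96%) were lower and 535 (3.27%) higher in GFP stress. The 7.96% and the 3.27% are the shares of all tested genes to set beside each count of list members that were lower or higher at an unadjusted p under 0.05. Over all tested genes 48.4% were above 0 and 51.6% below 0. These are the shares behind each count of members above or below 0. Lists and members were chosen with earlier results of these data known. Members of a list can also move together in the same few libraries, so such counts are descriptions and not independent results. Of the tested genes 167 reached the minimum only through GFP control libraries, 0 of them on the choroid plexus, septal or striatal lists. The activated microglia, GABA receptor, CRH and neuropeptide, and serotonin, dopamine and adrenergic lists held 1 each. The filter bears on the difference of such a gene, which is therefore not taken as a result. The values of the 8 stress and 5 control libraries did not overlap at all for 61 genes (0.372%), 42 of them lower (0.256%) and 19 higher (0.116%) in GFP stress. On the same reads edgeR called 0 genes, with 1960 at an unadjusted p under 0.05 (12%). DESeq2 called 39 genes (0.238%), 3 higher (0.0183%) and 36 lower (0.22%), with 2078 at an unadjusted p under 0.05 (12.7%). Weighting each library by its fit in limma gave 668 calls (4.08%), 203 higher (1.24%) and 465 lower (2.84%), and 4039 at an unadjusted p under 0.05 (24.7%). The weights of GFP control 1, 2, 10, 11 and 19 were 0.47, 2.25, 0.47, 0.35 and 1.45. The control side of these calls therefore rests mainly on controls 2 and 19. All differences below are therefore values that did not pass the limma test. Of 113 genes followed through every alternative, DESeq2 called 20 and limma with library weights 57, or 60 by either. The DESeq2 calls were Ttr, Folr1, Sostdc1, Kl, Otx2, Prlr, Gpr101, Glp1r, Igsf1, Trpm3, Frem2, Dnah5, Ace, Prelp, Slc5a3, Gabrq, Adra2b, Scnn1a, Ccl27a and Tmem42. The weighted fit called these except Kl, Ace and Gabrq. It also called Clic6, Dlk1, Nts, Zic1, Zic4, Isl1, Pde10a, Chat, Sv2c, Vcan, Pdgfra, Neurod6, Fezf2, Npas4, Btg2, Nptx2, Ier2, Cort, Npy, Gad2, Htr4, Htr2c, Adra2a, Cartpt, Tacr3, Galr1, Nr3c2, Fbln5, Gja1, Slc4a4, Lpl, Traf1, Ngfr, Gabrg1, Cald1, Tcf19, Gm9885 and 4833432E10Rik, and Peg10, which is not among the 113. Without GFP control 11 the number of genes at an unadjusted p under 0.05 was 3036, and without GFP control 1 and 10 it was 865. When the striatal, olfactory bulb and choroid plexus levels of each library (3 tissue levels) entered the fit, 43 of the 113 genes turned their sign. With the striatal, choroid plexus and septal levels, also chosen after the data were seen, 41 did.

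The lower genes were led by those of choroid plexus and ependyma, the epithelia that secrete cerebrospinal fluid and line the ventricles. Of 16 listed genes 13 were tested. Of these, 12 were lower in GFP stress at an unadjusted p under 0.05, against 7.96% of all tested genes, and 3 were lower with no overlap between the groups, against 0.256%. The median log2 difference was -2.45, against -0.01 over all tested genes. The remaining 3 genes, Kcne2, Slc4a5 and Tmem72, were too low to test. Summed over all 16 genes, normalized counts ran from 1181 to 10540.4 in GFP control and from 314 to 1203 in GFP stress. The highest stress library therefore just passed the lowest control library.

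Transthyretin, Ttr (Entrez 22139), is the main secreted product of the choroid plexus. Its normalized counts in GFP control 1, 2, 10, 11 and 19 were 7567, 194, 4890.3, 844 and 241. In GFP stress they ran from 3.09 through a median of 14.1 to 655. Only GFP control 1 and 10 were far above the rest, and stress libraries 3 and 21 overlapped the other controls. The log2 difference was -5.37 ± 1.17 (SE, adjusted p = 0.320), and -3.71 without GFP control 1 and 10. Clic6 (Entrez 209195), a chloride channel protein of this epithelium, separated the groups in full. Its counts were 410, 237, 268, 143 and 130 in the controls, and 10.4 to 105 with a median of 42.3 under stress. That is a log2 difference of -2.59 ± 0.63, or 6.01-fold lower (adjusted p = 0.320). The difference had the same sign in each of the 3 number runs, at -2.95, -2.41 and -2.02.

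The folate receptor Folr1 also did not overlap, with 88.8, 13.7, 64.0, 15.5 and 11.3 in the controls and 1.74 to 8.39 (median 4.48) under stress. The secreted BMP and Wnt inhibitor Sostdc1 held 14.1 to 81.2 in the controls, against 3.09 to 12.2 (median 7.85) under stress. It was highest in GFP control 1 and 10. Both genes were at low counts, so few reads parted the groups. In GFP stress 1 read stood for 0.457 to 1.74 normalized counts. Klotho, Kl (Entrez 16591), a co-receptor for fibroblast growth factor 23 that choroid plexus expresses strongly, had 309, 93.6, 213, 95.1 and 106 in the controls and 44.8 to 102 (median 59.0) under stress. In these genes too GFP control 1 and 10 were the highest libraries and the other 3 controls stood much closer to stress. Log2 differences were -2.45 for Folr1, -1.83 for Sostdc1, -1.19 for Kl and -2.86 for Otx2, the transcription factor that maintains choroid plexus identity. DESeq2 called 6 listed genes, among them these 4 and Ttr. Aqp1, a water channel of the choroid plexus that other cells also express, was the 1 member above 0, at 0.43. Without GFP control 1 and 10 the differences were -1.49 for Folr1, -1.08 for Sostdc1, -0.64 for Kl, -2.15 for Otx2 and -2.18 for Clic6, and the median of the list was -1.19. Within the number runs it was -2.80, -2.20 and -1.40. With the 3 tissue levels, which hold the list's own level constant, it was -0.01.

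**Figure D1:**
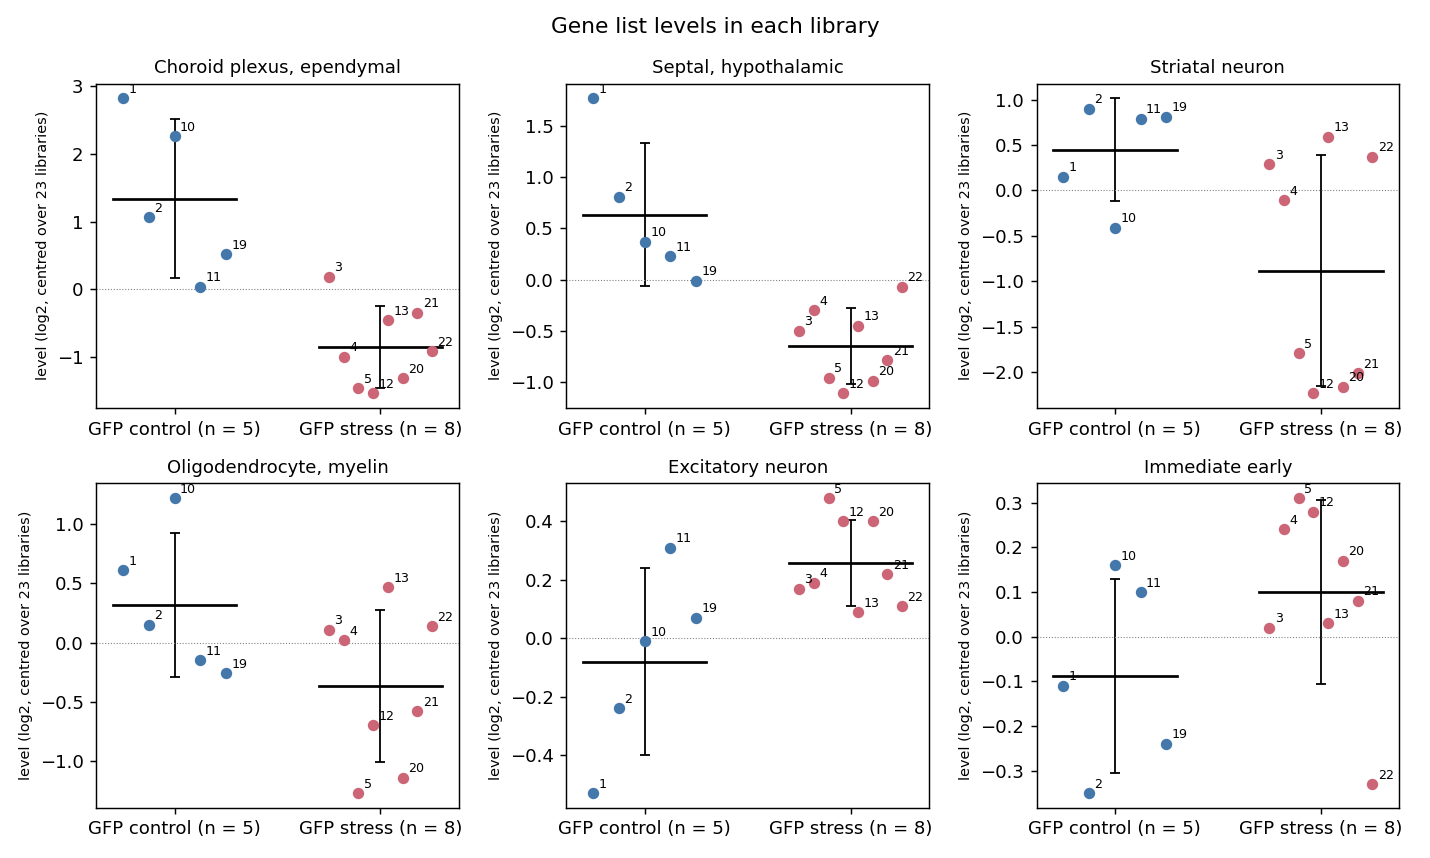
Level of 6 gene lists in each of the 13 libraries, as the mean of the members' log2 values centred over all 23 libraries. Points are libraries with their number, bars are group means and whiskers 1 SD (n = 5 and n = 8). Choroid plexus level is highest in GFP control 1 (2.82) and 10 (2.26), and striatal level is lowest in GFP stress 5, 12, 20 and 21.

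Genes of septal and hypothalamic neurons were lower in the stressed libraries as well. Of 19 listed genes 18 were tested (Calcr was too low), 16 were below 0 and 15 of these had an unadjusted p under 0.05, against 7.96% of all tested genes. The median was -1.23. Without GFP control 1 it was -0.79, and without GFP control 1 and 10 it was -0.77. The imprinted gene Peg10, at -1.05, was the 1 member without overlap. Every stress library had a mean log2 level, from -1.11 to -0.07, below the lowest control, at -0.01, and GFP control 1 was far above all others at 1.77. Within the number runs the median was -2.10, -1.04 and -0.30. Dlk1 and Zic1 turned to 0.09 with the 3 tissue levels. The list shares Prlr with the choroid plexus list and Isl1 with the striatal list.

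Dlk1 (Entrez 13386), an imprinted Notch-family ligand of hypothalamic neurons, had 1358, 672, 406, 245 and 258 normalized counts in the controls. Under stress its counts ran from 23.5 to 256 with a median of 91.9, and only GFP stress 13 reached the control range. This is 5.50-fold lower (log2 -2.46 ± 0.65, adjusted p = 0.320). The neuropeptide gene Nts was at 278, 182, 41.3, 62.6 and 88.9 in the controls and 5.94 to 61.6 (median 22.8) under stress, where libraries 4 and 22 reached the control range. Zic1 and Zic4, transcription factors of the medial septum and other midline structures, differed by -1.54 and -1.60. Zic1 was highest in GFP control 1 and 10, at 2698 and 1997, while the other controls ran down to 706 and the stress libraries from 331 to 722. Without controls 1 and 10 the differences were -1.01 for Zic1, -0.99 for Zic4 and -2.02 for Dlk1.

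A pair of receptor genes outside the lists had the same pattern. Gpr101, an orphan receptor enriched in hypothalamus, had 529, 202, 68.0, 73.4 and 60.7 in the controls and 11.9 to 50.9 (median 27.3) under stress, with no overlap. Glp1r, the receptor for glucagon-like peptide 1, had 176, 79.9, 268, 48.7 and 16.9 against 0 to 29.3 (median 4.05), and GFP stress 22 overlapped. Gpr101 was -2.35 ± 0.54 and Glp1r -3.78 ± 0.89 on the log2 scale (adjusted p = 0.320 for both), and DESeq2 called both. Igsf1, an immunoglobulin-family membrane protein of the hypothalamus and pituitary, did not overlap either, at 86.6 to 443 in the controls and 27.4 to 68.8 under stress. Without GFP control 1 the differences were -1.84 for Gpr101, -3.50 for Glp1r and -1.24 for Igsf1.

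Genes of striatal medium spiny neurons, the dopamine-receptive projection cells of the neighbouring striatum, split the stressed libraries into 2 sets. All 24 listed genes were below 0, 18 with an unadjusted p under 0.05 (against 7.96% of all tested genes), and the median was -1.25. The level was -1.79 to -2.23 in GFP stress 5, 12, 20 and 21, but -0.11 to 0.59 in stress 3, 4, 13 and 22. Controls ran from -0.41 to 0.90, so these higher stress libraries lay within the control range. Without the 5 far libraries the median was -0.12.

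The dopamine receptor gene Drd2 (Entrez 13489) had 730, 1459.8, 532, 1311 and 1269.9 normalized counts in the controls. In the 4 low stress libraries it had 67.7, 34.3, 30.5 and 53.0, and in the other 4 it had 944, 591, 1300.5 and 921. The log2 difference was -2.29 ± 0.87 (adjusted p = 0.380). Drd1, at -1.09 ± 0.51 (adjusted p = 0.432), divided in the same way, with 273 to 326 in the low set. Without the 5 far libraries Drd1 was 0.09 and Drd2 -0.13. The phosphodiesterase Pde10a, enriched in medium spiny neurons, was -1.27, and Isl1, a transcription factor of direct-pathway neurons, was -3.31 with 0 in GFP stress 21. Chat, the enzyme that makes acetylcholine in striatal interneurons and basal forebrain neurons, followed the same libraries, with 6.40 to 12.1 in the low set and at least 49.6 in the other. Without the 5 far libraries Pde10a was -0.13, Isl1 -1.33 and Chat -0.76.

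**Figure D2:**
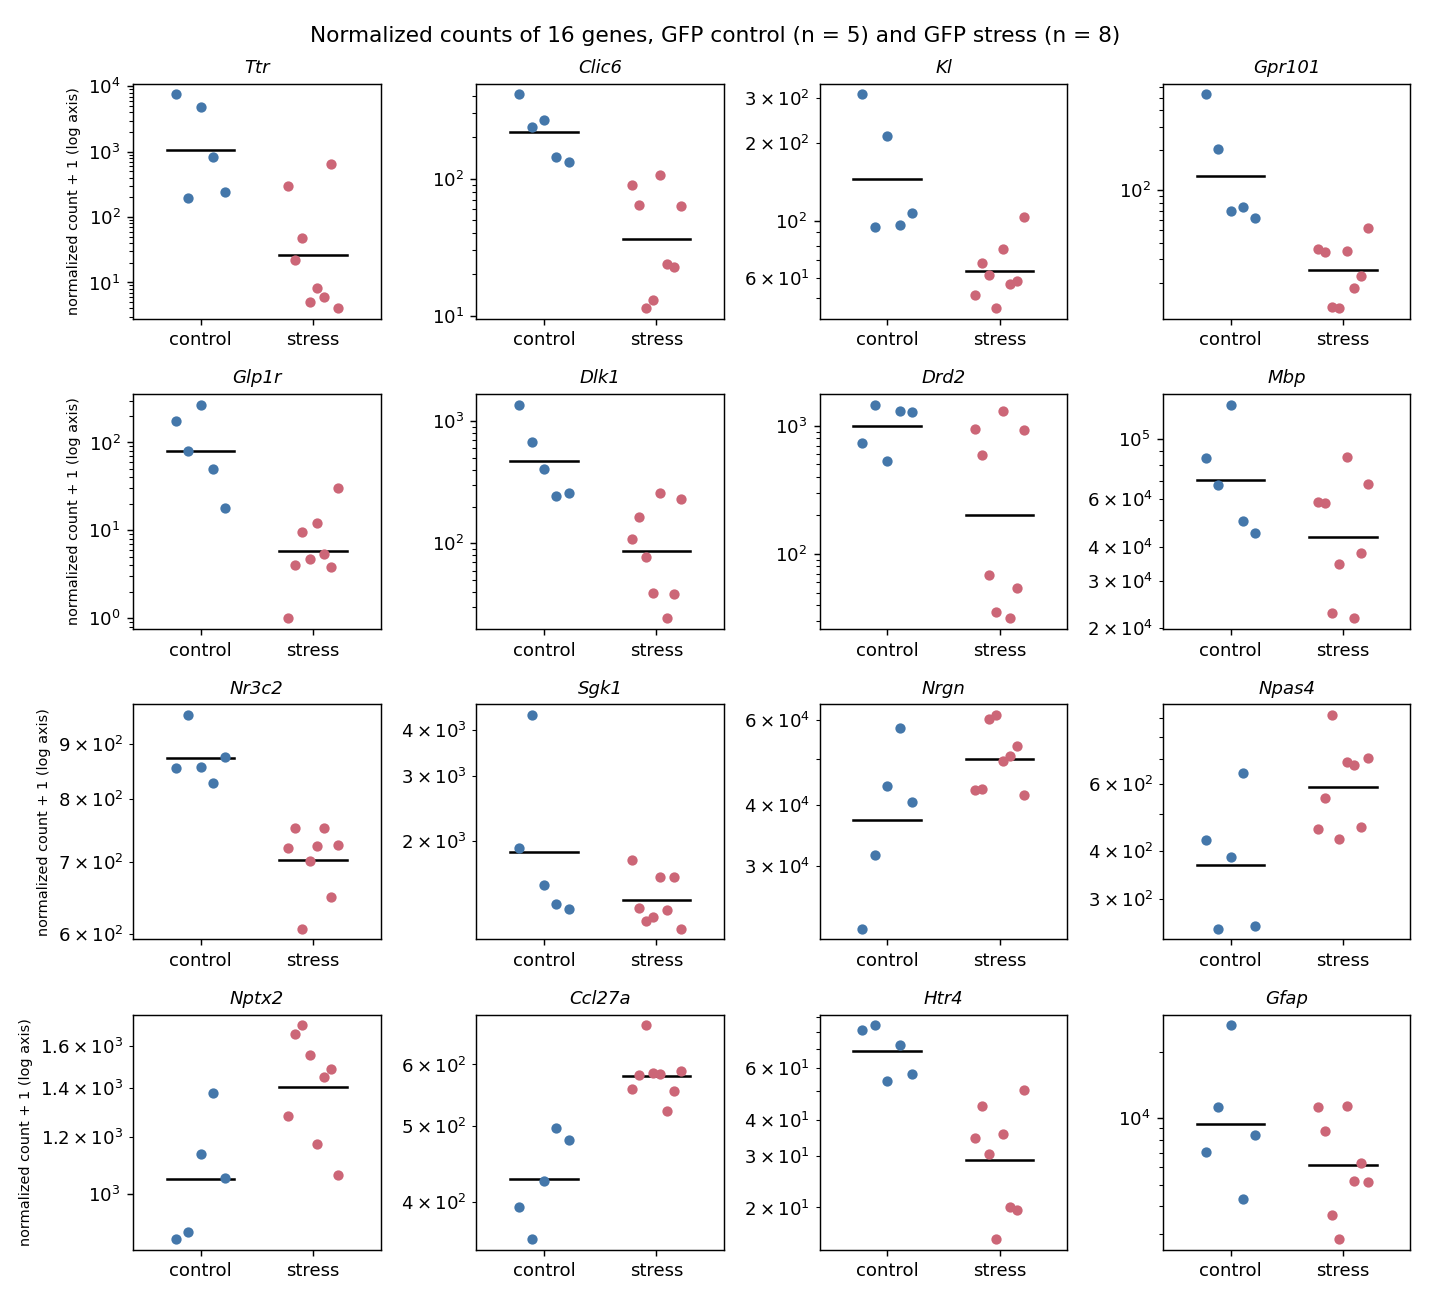
Normalized counts plus 1 of 16 genes on log axes, 1 point per library for GFP control (n = 5) and GFP stress (n = 8), with bars at geometric means. Clic6, Gpr101, Nr3c2, Ccl27a and Htr4 do not overlap, while Drd2 falls into a low and a high set among the stressed libraries.

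Myelin genes were lower in the stressed group. All 24 oligodendrocyte genes tested were below 0, 18 with an unadjusted p under 0.05 (against 7.96% of all tested genes), but none separated the groups. Their median was -0.69. It was -0.29 without GFP control 1 and 10 and -0.13 without the 5 far libraries. Mbp (Entrez 17196), the basic protein that compacts myelin, had 84729.7, 67602, 133476, 49839.6 and 44880.4 in the controls and 21783 to 85875 (median 48068) under stress. GFP control 10 was the highest library and GFP stress 20 the lowest, and 4 stress libraries lay below every control. The difference was -0.69 ± 0.33 on the log2 scale (adjusted p = 0.438). The myelin proteolipid Mal was -0.75 and transferrin, Trf, -0.79. Enpp2, which makes lysophosphatidic acid and is expressed in both oligodendrocytes and choroid plexus, was at 10086 and 10322 in GFP control 1 and 10 and at 4289.6 to 5078 in the other 11 libraries. Without controls 1 and 10 its difference was 0.01.

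The myelin level moved with the tissue levels. It was 1.22 in GFP control 10 and 0.61 in control 1, and -1.27, -0.70, -1.14 and -0.58 in the stress libraries with low striatal level. With the 3 tissue levels in the fit the median of the list turned to 0.51. The part of these tissue levels in the myelin difference was not tested. Oligodendrocyte precursor genes had a smaller median of -0.23, with 14 of 15 below 0. At an unadjusted p under 0.05, 7 were lower and 1 higher, against 7.96% and 3.27% of all tested genes, and none separated the groups. With the 3 tissue levels the precursor median was -0.02. Vcan, a matrix proteoglycan, was at 747, 916, 849, 515 and 844 in the controls and 364 to 680 (median 492) under stress (log2 -0.59 ± 0.16, adjusted p = 0.320). Pdgfra, the growth factor receptor of precursors, was -0.24, while Rlbp1, a retinoid-binding protein also found in precursors, was 0.32.

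Genes of cortical excitatory neurons were higher under stress by small amounts. All 15 were above 0 and the median was 0.37, but only 2 had an unadjusted p under 0.05, against 3.27% of all tested genes higher, and none separated the groups. Nrgn (Entrez 64011), a calmodulin-binding protein of dendritic spines, had 22239, 31598, 43919, 57908 and 40721 in the controls and 41949 to 61533 (median 50009.5) under stress. All 8 stress libraries were above the control median, and GFP control 10 and 11 lay within the stress range. The difference was 0.42 ± 0.18 (adjusted p = 0.419). The transcription factor Neurod6 was 0.44, the neuropeptide Cck 0.49, the potassium channel modifier Kcnv1 0.36 and Slc17a7 0.37 ± 0.28. Excitatory level was lowest, at -0.53, in GFP control 1, the library highest in choroid plexus and septal level, and without it the median was 0.22. Within the number runs the median was 0.72, 0.09 and 0.25. It turned to -0.39 with the 3 tissue levels in the fit and was 0.05 with the striatal level alone, and the part of those tissues in the difference was not tested.

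Layer markers did not share 1 direction. Among 20 deep-layer genes 10 were above 0, and Fezf2, which specifies subcortical projection neurons, was 0.49 ± 0.21 (adjusted p = 0.407). Thy1, a surface protein of projection neurons, was 0.22. Among 16 upper-layer genes the median was 0.03, with Scnn1a, a sodium channel subunit marking layer 4 cells, at -1.10 (151, 130, 208, 47.9 and 111 in the controls, 27.8 to 85.0 under stress) and Rspo1 at -0.46. DESeq2 called Scnn1a.

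Most synaptic genes were slightly above 0. Of 27 genes of synaptic vesicles and release 23 were above 0 (median 0.15), with 0 higher and 2 lower at an unadjusted p under 0.05. Of 23 postsynaptic scaffold genes 19 were above 0 (median 0.11), with 1 higher and 0 lower at that p, against 3.27% and 7.96% of all tested genes. The vesicle median was 0.25 without GFP control 11. The postsynaptic median was 0.02 without GFP control 1 and 0.19 without control 11. Stx1a, a fusion protein of the presynaptic membrane, was 0.44 ± 0.21 and the vesicle protein Syp 0.23 ± 0.12 (adjusted p = 0.448 and 0.460). Sv2c, a vesicle protein of striatal and other basal ganglia neurons, and Slc32a1, the vesicular transporter for GABA, went the other way at -0.89 and -0.54. Sv2c was 222 to 395 in the 4 stress libraries with low striatal level and 595 to 834 in the others, and its difference was -0.27 without the 5 far libraries. Both medians turned with the 3 tissue levels, to -0.22 and -0.14. Claustrum and insular genes, with a median of 0.06, and olfactory bulb genes, with a median of -0.05, had no common direction. The bulb genes Tbx21, Eomes, Cdhr1 and Doc2g were at 1.35, 1.30, 0.91 and 0.76, none with an unadjusted p under 0.05.

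Immediate early genes were mostly above 0 in the stressed libraries, taken on day 28, after the defeat of day 21 and the last tests by day 27. Of 30 genes 24 were above 0, 4 with an unadjusted p under 0.05 (all higher, against 3.27% of all genes), and the median was 0.20. Without GFP control 2 the median was 0.13, and without the 5 far libraries 0.05. Promoters of the members with the smallest p that had a RefSeq entry, Npas4 and Btg2, and of Fos are printed here because these genes are classic targets of calcium or cAMP signalling. Each window runs from 250 bases before to 50 bases after the transcript start, on GRCm38.p6, 5′ to 3′ on the strand of the gene. Capitals mark TGACG or its reverse complement CGTCA, the core of the cAMP response element.
Npas4: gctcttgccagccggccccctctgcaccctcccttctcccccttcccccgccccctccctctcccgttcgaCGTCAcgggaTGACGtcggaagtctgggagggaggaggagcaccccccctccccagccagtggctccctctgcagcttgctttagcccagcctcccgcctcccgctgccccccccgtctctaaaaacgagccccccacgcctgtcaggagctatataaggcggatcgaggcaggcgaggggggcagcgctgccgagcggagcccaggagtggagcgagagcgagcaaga
Btg2: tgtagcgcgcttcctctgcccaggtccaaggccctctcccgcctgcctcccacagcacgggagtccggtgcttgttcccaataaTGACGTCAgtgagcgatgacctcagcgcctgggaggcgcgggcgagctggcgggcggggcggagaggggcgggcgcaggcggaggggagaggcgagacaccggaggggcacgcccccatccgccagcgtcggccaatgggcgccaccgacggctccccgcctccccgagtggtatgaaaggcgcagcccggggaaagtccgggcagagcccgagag
Fos: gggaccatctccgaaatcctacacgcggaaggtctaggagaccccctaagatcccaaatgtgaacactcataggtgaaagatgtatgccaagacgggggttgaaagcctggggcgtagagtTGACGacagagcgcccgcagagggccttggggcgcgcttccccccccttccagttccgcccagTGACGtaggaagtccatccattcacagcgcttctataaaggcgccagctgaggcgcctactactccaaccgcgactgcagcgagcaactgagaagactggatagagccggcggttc
They lie at chr19:4989922-4990221 (minus strand), chr1:134079106-134079405 (minus strand) and chr12:85473640-85473939 (plus strand). Each window holds 2 matches. In Btg2 the 2 overlap and form TGACGTCA, the full palindromic element. Of the 30 immediate early genes 23 had promoter entries in the RefSeq table, 35 in all, and 19 of these (54.3%) held the short motif on either strand, against 20.8% of 32851 promoters of the same length. TGACGTCA was in 2 of the 35, against 1.79% of all. A match describes letters only, and no binding was measured.

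Npas4 (Entrez 225872), an activity-induced transcription factor, had 428, 249, 384, 643 and 253 normalized counts in the controls. Under stress it ran from 431 to 913 with a median of 615. All 8 stress libraries were above the control median and only GFP control 11 lay within their range. The difference was 0.69 ± 0.24, or 1.61-fold higher (adjusted p = 0.345). The antiproliferative transcript Btg2 had 739, 349, 498, 306 and 347 against 441 to 770 (median 658), a difference of 0.53 ± 0.19 (adjusted p = 0.345). Here GFP control 1 was above all stress libraries but 1. Nptx2, a secreted pentraxin that clusters AMPA receptors, had 865, 885, 1134, 1379 and 1049.8 against 1060.0 to 1709.6 (median 1469), 0.42 ± 0.14 (adjusted p = 0.326).

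Fos itself overlapped almost throughout, at 1075, 453, 947, 474 and 452 in the controls and 449 to 1086 (median 922) under stress (0.37 ± 0.26, adjusted p = 0.597). Arc, an activity-regulated protein that trims AMPA receptors, was 0.41 ± 0.29 and the neurotrophin Bdnf 0.43 ± 0.25. Ier2 was 0.44 ± 0.21. Within the number runs the differences were 0.91, 0.13 and 1.25 for Npas4 and 0.33, 0.59 and 0.81 for Btg2. The list's level was lowest of all 13 libraries, at -0.35 and -0.33, in GFP control 2 and GFP stress 22, and 4 stress libraries lay above every control. Bdnf turned to -0.40 with the 3 tissue levels, while Npas4, Btg2, Ier2, Fos and Arc kept their sign in every fit run. Values without the 5 far libraries were 0.69 for Npas4, 0.35 for Btg2, 0.22 for Ier2, 0.08 for Fos and 0.19 for Arc.

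Inhibitory neurons had no common direction. Of 24 interneuron genes 10 were above 0 (median -0.02), with 2 higher and 5 lower at an unadjusted p under 0.05. Cort, the neuropeptide cortistatin of a subset of interneurons, had 137, 128, 132, 198 and 131 in the controls and 153 to 271 (median 212) under stress, 1.49-fold higher (0.57 ± 0.19, adjusted p = 0.326). Npy, neuropeptide Y, had 1273, 1319, 1337, 1791 and 1738 against 1569 to 2095 (median 1867), 0.32 ± 0.11 (adjusted p = 0.345). For both, all 8 stress libraries stood above the control median. Npy turned to -0.04 with the 3 tissue levels, and Cort kept its sign in every fit run. Gad2, which makes the transmitter GABA, was -0.54 ± 0.20 and Gad1 -0.16 ± 0.13. Gad2 was highest in GFP control 1 and 2, at 9511 and 7934, and lowest in GFP stress 5, at 3421.

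Among 27 serotonin, dopamine and adrenergic receptor and enzyme genes 15 were below 0, and the median was -0.02. Of the 15, 9 had an unadjusted p under 0.05, against 7.96% of all tested genes. These 9 include Drd1 and Drd2, which are also on the striatal list. Adra2b, an alpha-2 adrenergic receptor of thalamus and few other brain sites, did not overlap between groups, though by a narrow margin. Its counts were low, at 56.7, 18.6, 30.6, 29.4 and 19.8 in the controls and 1.37 to 18.5 (median 4.28) under stress (-2.35 ± 0.52, adjusted p = 0.320). Htr4 (Entrez 15562), a serotonin receptor abundant in basal ganglia and septum, also did not overlap, at 80.0, 83.1, 53.3, 71.1 and 56.4 against 14.6 to 49.4 (median 31.5). That is 2.36-fold lower (-1.24 ± 0.31, adjusted p = 0.320). It was lower in each number run, by -1.19, -1.41 and -1.09. Htr4 was -0.75 and Adra2b -1.56 without the 5 far libraries. The serotonin receptor Htr2c, edited in brain and abundant in choroid plexus, was -0.63 ± 0.21, Htr7 -0.67 ± 0.23 and the autoreceptor Adra2a -0.54 ± 0.14. DESeq2 called Adra2b.

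Of 34 tested genes of the CRH system and cortical neuropeptides (Ucn was too low) 17 were above and 17 below 0. At an unadjusted p under 0.05, 2 were higher and 9 lower, against 3.27% and 7.96% of all tested genes. Among the 9, Penk is also on the striatal list and Nts on the septal list. Crh, the peptide that starts the hormonal stress response and is also made by cortical interneurons, was nearly equal in the groups. It had 128, 92.0, 93.3, 145 and 81.8 in the controls and 64.3 to 162 (median 98.1) under stress (0.03 ± 0.25). Its sign turned with each tissue covariate and without any 1 of 6 libraries, with values from -0.06 to 0.14 when 1 library was left out. Its receptor Crhr1 was 0.31 ± 0.21 and turned to -0.42 with the 3 tissue levels. Cartpt, a peptide precursor of hypothalamus, accumbens and some cortical cells, had 241, 207, 191, 211 and 310 against 78.8 to 202 (median 120), 1.84-fold lower (-0.88 ± 0.27, adjusted p = 0.326). Only GFP stress 22 reached the control range. The tachykinin receptor Tacr3 was -1.77 ± 0.60 and the galanin receptor Galr1 -1.98 ± 0.57, both at low counts. Values without the 5 far libraries were -0.57 for Cartpt, -0.76 for Tacr3 and -1.46 for Galr1. Tacr3 turned to 0.28 with the 3 tissue levels.

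Of the stress hormone receptors, the values of Nr3c2 did not overlap between the groups and those of Nr3c1 did. Nr3c2 (Entrez 110784), the mineralocorticoid receptor, had 855, 957, 857, 828 and 875 in the controls and 606 to 752 (median 721) under stress. The difference was -0.32 ± 0.08, or 1.24-fold lower (adjusted p = 0.320), and it was -0.39, -0.24 and -0.31 within the number runs. Its sign was the same in every fit run. Nr3c1 (Entrez 14815), the glucocorticoid receptor, had 3173, 2559.8, 2652, 2606 and 2588 against 2395 to 2925 (median 2682), a difference of -0.03 ± 0.06. GFP control 1 was its highest library, and without it the difference was 0.03. The difference between the 2 receptor genes was not tested.

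The list of stress hormone receptors and glucocorticoid-induced genes had a median of -0.10, with 19 of 28 below 0. At an unadjusted p under 0.05, 1 was higher, Cdkn1a, and 2 were lower, the receptor Nr3c2 given above and Sgk1. Without GFP control 2 the median was -0.02. The kinase Sgk1 had 1913, 4382, 1526, 1351 and 1314 in the controls and 1160.3 to 1774 (median 1311) under stress (-0.43 ± 0.20, adjusted p = 0.434). GFP control 2 alone held the high value, and within the later number runs the differences were -0.03 and 0.03. The receptor co-chaperone Fkbp5 was -0.09 ± 0.12 and the leucine zipper protein Tsc22d3 -0.11 ± 0.11. Both were highest in GFP control 2, and both turned to 0.01 without it. Cdkn1a, a cell cycle inhibitor, was 0.36 ± 0.16 and Nfkbia, the inhibitor of NF-kB that glucocorticoids induce, -0.27 ± 0.15.

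Astrocytes carried the vector's active promoter. Gfap (Entrez 14580) had 7059.9, 11271, 26388, 4329.6 and 8411 in the controls and 2839.7 to 11345 (median 5735) under stress. The spread within groups was wide, GFP control 10 was the highest, and the difference was -0.63 ± 0.41 (adjusted p = 0.562), or -0.26 without that library. Reactive astrocyte genes had a median of -0.38, with 25 of 28 below 0 but only 3 lower at an unadjusted p under 0.05, against 7.96% of all tested genes. The median was -0.07 without GFP control 10 and -0.63 without GFP control 11. Fbln5, an elastic fibre protein, did not overlap, with 169, 204, 169, 251 and 224 in the controls against 99.2 to 160 (-0.61 ± 0.17, adjusted p = 0.320). The ferroxidase Cp was -0.59 and complement C4b -0.89. Among homeostatic genes, 18 of 26 were below 0 at a median of -0.08 (-0.02 without GFP control 10), with the water channel Aqp4 at -0.36, the gap junction protein Gja1 at -0.28 and the bicarbonate transporter Slc4a4 at -0.25. The reactive level ran from -0.93 in GFP control 11 to 1.39 in control 10, and this range held every stress library but 1. The reactive median turned to 0.44 with the 3 tissue levels.

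Microglial genes differed little, with a median of -0.13, 16 of 20 below 0 and none at an unadjusted p under 0.05. The median was -0.01 without GFP control 10 and -0.25 without control 11. Cx3cr1, the microglial chemokine receptor, had 1403, 1563, 1961, 1346 and 1509.8 against 1286 to 1894 (median 1358), -0.11 ± 0.11. Genes of activated microglia and macrophages had a median of -0.41, with 18 of 20 tested below 0 and 3 lower at an unadjusted p under 0.05. The median was -0.07 without GFP control 10 and -0.70 without GFP control 11. The lipase Lpl was -0.61 and the innate receptor Tlr2 -0.68. Both lists turned with the 3 tissue levels, to 0.33 and 0.46. NF-kB genes had a median of -0.14 over 23 of 27 tested (-0.02 without GFP control 10 and -0.25 without control 11), with the adaptor Traf1 at 5.41 to 40.9 in the controls and 6.71 to 15.6 under stress. Meningeal fibroblast genes had a median of -0.13 and 14 of 18 below 0, and the median was -0.30 without GFP control 1 and 0.04 without GFP stress 22. Interferon-induced genes had a median of -0.01 and none at an unadjusted p under 0.05.

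Of 14 genes of pericytes and vascular smooth muscle 10 were below 0, and 3 were lower at an unadjusted p under 0.05, against 7.96% of all tested genes. None separated the groups. The median was -0.10, or -0.03 without GFP control 10 and -0.18 without GFP stress 13. The 3 genes take part in smooth muscle contraction. Acta2, smooth muscle actin, had 403, 571, 757, 729 and 488 in the controls and 246 to 503 (median 400) under stress (-0.64 ± 0.19, adjusted p = 0.326). Tagln was -0.52 ± 0.18 and the myosin kinase Mylk -0.31 ± 0.11. Myh11, smooth muscle myosin, was -0.37 at an unadjusted p of 0.116 (limma). Endothelial genes had a median of -0.03, with 0 of 20 at an unadjusted p under 0.05. Blood cell genes were above 0 in 6 of 6 tested (Hba-a1 was too low), with a median of 1.36. GFP stress 12 and 13 carried this. Alas2, the first enzyme of haem synthesis in red cells, had 436 and 670 there and 18.3 to 81.7 in the other 11 libraries. Hba-a2, an alpha globin, had 640 and 1153 there. Without GFP stress 13 the median of the list was 0.83.

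Housekeeping and metabolic lists lay close to 0. Oxidative phosphorylation genes had a median of 0.06 (32 of 37 above 0), with Cyc1 at 0.13, Cox5b at 0.11 and cytochrome c, Cycs, at 0.24. Cholesterol synthesis genes had a median of 0.10 (23 of 25 above 0), with Mvd at 0.23. Ribosomal protein genes had a median of -0.04 (36 of 45 below 0). In the heat shock and unfolded protein list, at a median of 0.02, the stress-response factor Atf4 was 0.18 ± 0.07, its target Chac1 0.32 ± 0.14 and the folding enzyme Pdia4 -0.28 ± 0.09. Circadian clock genes had 11 above and 11 below 0. Leaving out 1 library kept these 5 medians between -0.09 and 0.11.

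Growth factor and receptor lists were mixed. In the neurotrophin list, at a median of -0.01, Ngfr, the low-affinity neurotrophin receptor of basal forebrain neurons, did not overlap, with 171, 194, 87.9, 118 and 80.4 against 27.8 to 77.2 (-1.15 ± 0.34, adjusted p = 0.326). Vegfa, a vascular growth factor, was 0.24 ± 0.08. Glutamate receptor genes had a median of -0.02, with Grm5 at -0.24. GABA receptor genes had a median of 0.01. Of 16 tested, 1 reached the minimum of the filter only through GFP control libraries, so its difference is no result. The subunits Gabrq, Gabre and Gabrg1, which are abundant in hypothalamus and septum, were at -1.44, -1.63 and -0.49, and each was highest in GFP control 1 (127, 71.2 and 1129). Without that library they were at -0.83, -1.05 and -0.25.

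**Figure D3:**
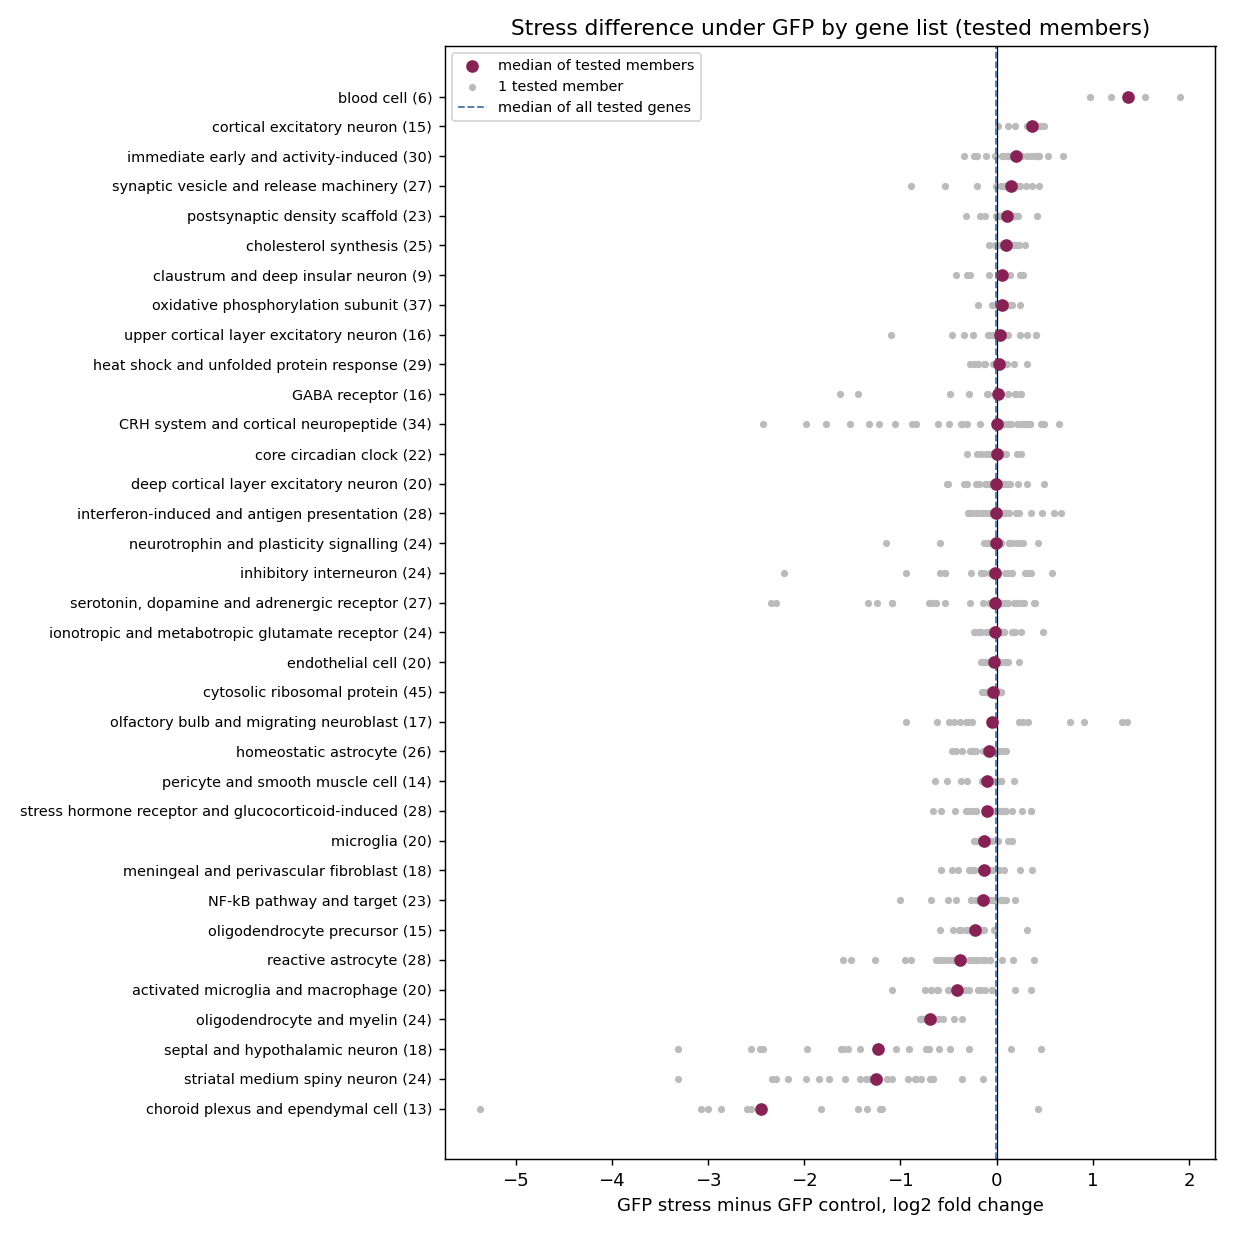
Log2 difference of GFP stress minus GFP control for tested members of 35 gene lists (grey) and their medians (purple), with the number tested in brackets and the median of all tested genes as a dashed line. The choroid plexus median is -2.45 and the blood cell median 1.36, while most lists lie near 0.

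Ranked by p among genes averaging at least 50 normalized counts, the top 20 comprised 15 lower and 5 higher genes. Beside Ttr, Gpr101, Glp1r, Clic6, Kl and Htr4, the lower genes included Trpm3, a cation channel strongly expressed in choroid plexus. It had 1416, 922, 1035, 715 and 691 in the controls and 481 to 655 (median 568) under stress, with no overlap (-0.69 ± 0.16, adjusted p = 0.320), and was -0.43 without GFP control 1 and 10. Frem2, an extracellular matrix protein, had 137, 125, 149, 136 and 119 against 64.6 to 115 (median 78.2) and did not overlap. Neither did Gpr63, an orphan receptor, at 104 to 122 against 75.1 to 99.8. The ciliary motor gene Dnah5 (-0.68), the peptidase Ace (-0.55), the matrix protein Prelp (-0.70), the inositol transporter Slc5a3 (-0.37) and the actin-binding Cald1 (-0.38) overlapped between the groups. Dnah5 was -0.38 without GFP control 1 and 10.

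The higher genes differed by smaller folds. The chemokine gene Ccl27a (Entrez 20301) had 394, 358, 425, 497 and 480 in the controls and 522 to 672 (median 582) under stress, 1.35-fold higher with no overlap (0.44 ± 0.10, adjusted p = 0.320). Tcf19, a chromatin-associated factor of proliferating cells, had 112, 92.8, 127, 130 and 94.5 against 142 to 175 (median 152), also with no overlap (0.48 ± 0.12, adjusted p = 0.320). Tmem42 was 0.39 ± 0.09, Gm9885 0.52 ± 0.13 and 4833432E10Rik 0.45 ± 0.12. Ccl27a was higher in each number run, by 0.68, 0.34 and 0.21, and Tcf19 by 0.57, 0.36 and 0.65. DESeq2 called Ccl27a and Tmem42.

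The stress difference under GFP was set beside that under ZBTB7A (5 stress against 5 control libraries), which shares no library with it. Under ZBTB7A 0 genes passed in limma and 272 (1.66%) had an unadjusted p under 0.05, 177 higher (1.08%) and 95 lower (0.58%). DESeq2 called 1 gene there, Cartpt. The groups did not overlap for 69 genes (0.421%). The interaction, which tests whether the 2 stress differences are unequal, also called 0 genes, with 1216 (7.42%) at an unadjusted p under 0.05. Of these 924 (5.64%) were above 0 and 292 (1.78%) below, where 52.4% and 47.6% of all genes were above and below 0. For all 20 genes of smallest p the difference under GFP was the larger, and 17 of the 20 had an interaction p under 0.05 unadjusted. They were chosen for a small p under GFP, so this is a description. Under ZBTB7A the striatal median was 0.83 with 24 of 24 above 0, against 52.5% of all genes above and 47.5% below 0, the septal median 0.30, the choroid plexus median 0.21 and the oligodendrocyte median 0.24, all opposite in sign to the GFP values. ZBTB7A control 6 had the highest striatal level of its group, at 1.92, and stress libraries 7 and 9 followed at 1.33 and 1.49.

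Cartpt had the smallest interaction p of all genes. Its log2 difference was -0.88 ± 0.27 under GFP and 1.50 ± 0.30 under ZBTB7A, from 125 to 352 mean normalized counts. The interaction was 2.38 ± 0.40 (adjusted p = 0.0976), which did not pass. DESeq2 called it, at an adjusted p of 6.4e-05, as did limma with library weights (0.00835) and limma without GFP stress 13 (0.0358) or 22 (0.0446). With the striatal level in the fit it was 1.76 ± 0.38 (adjusted p = 0.999). For Kl the differences were -1.19 and 0.81 (adjusted p of the interaction 0.668, limma). DESeq2 called the interaction of Kl (adjusted p = 0.0321), as did limma with library weights (0.0180). With the 3 tissue levels it was 1.31 ± 0.54 (adjusted p = 0.959, limma). For Nr3c2 the differences were -0.32 and 0.05 (interaction 0.37 ± 0.13, adjusted p = 0.668). Npas4 was 0.69 under GFP and -0.03 under ZBTB7A, and Cort was 0.57 and 0.51 (interaction -0.06 ± 0.28).

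**Figure D4:**
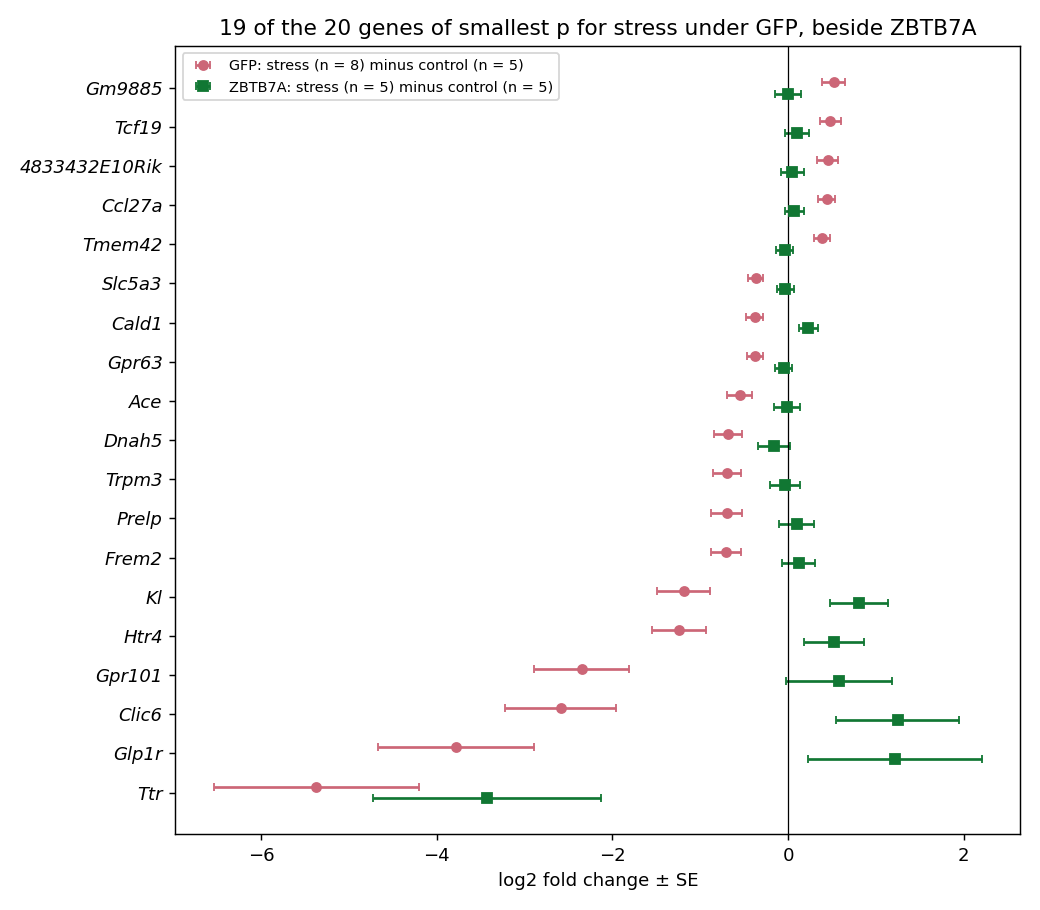
Log2 stress differences with SE for 19 of the 20 genes of smallest p under GFP (circles, n = 8 and 5), beside the same difference under ZBTB7A (squares, n = 5 and 5). Values under ZBTB7A lie nearer 0 for all 19 genes, and Ttr is lower under stress with both vectors (-5.37 and -3.43).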

How the data were processed

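Bulk RNA-seq libraries of mouse orbitofrontal cortex were analysed, 13 for the comparison reported and 23 in the fit. The authors deposited 1 table of signal values that are gene counts divided by library size factors, with no raw counts beside them. The submitters' processing notes name DESeq2 2.11.40.6, featureCounts 2.0.1 and HISAT2 2.1.0, and both mm10 and mm9 as builds, without their roles. The labels' protocols do not state how strand was treated in counting, so overlapping and antisense genes may share reads.

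Of 27606 entries, 428 were identical repeats of an Entrez gene and were dropped. This left 27178 genes, of which 958 had no symbol and 4174 were 0 in every library. Genes at 10 or more in at least 5 of 23 libraries were kept (16385), and log2(value + 1) was fitted with limma 3.58.1 (R 4.3.3) on 4 group means over all 23 libraries, which share 1 estimate of spread, with the trend and robust options. Adjusted p is Benjamini-Hochberg over all genes tested, with a threshold of 0.05. Every adjusted p without another tool named is limma's. In all 23 libraries, 100% of the values gave whole reads when divided by the value of 1 read (tolerance 0.02). On these reads edgeR 4.0.16 (quasi-likelihood) called 0 genes and DESeq2 1.42.0 called 39. Depths are those of the recovered reads, and their counting error is a lower bound to the error of any value. The pipeline was tested on simulated counts. Other processing used Python 3.11.15, pandas 2.3.3 and numpy 2.4.6.

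The level of a list in a library is the mean over its tested members of log2 values centred on all 23 libraries. The lists (35, with 761 symbols, of which 756 genes were matched, 3 by synonym, and 746 tested) and all members were chosen with earlier results of these data known. The rule for named genes takes the 20 smallest p among genes with a mean of 50 or more, a fixed panel of 20 genes, up to 6 members of smallest p in each list, and up to 10 genes without overlap. The 113 genes followed through every alternative are those the rule takes less some left out after values were seen, and a few that are not reported here. Peg10, Aqp1, Tbx21, Eomes, Cdhr1 and Doc2g were added after values were seen. Promoters and their positions are RefSeq's on GRCm38.p6, and no other coordinates are given because the build of the deposited table is not settled. Alternatives changed the pseudocount, the filter, the scaling (TMM), the test, the covariates, the weights and the libraries. The fits without GFP control 1 and 10, and with the striatal, choroid plexus and septal levels, were chosen after the data were seen.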

Additional observations from a re-analysis of the deposited data

Results flagged for a closer look

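In each group the highest or lowest library was compared with its nearest neighbour, as a share of the group's whole range, against Dixon's 95% critical value. Chance alone passes about 1 in 20 groups. Of 296 sets of values examined, over 113 genes and 35 list levels, 15 passed.

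Among the 5 GFP control libraries, number 11 was highest in cortistatin, Cort, at 198 normalized counts and in the level of glutamate receptor genes at 0.20, and lowest in Traf1 at 5.41. Number 1 was highest in Nr3c1 at 3173 and in Gabrq at 127. Number 2 was highest in Nfkbia at 936, and number 10 lowest in Chat at 34.6.

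Among the 8 GFP stress libraries, number 13 was highest in Gja1 at 4929 and Cx3cr1 at 1894, and lowest in Cycs at 352. Number 21 was highest in Gad1 at 12249.7 and Gabrg1 at 536. Number 12 was highest in the level of synaptic vesicle genes at 0.26, number 5 in Ccl27a at 672, and number 22 was lowest in the level of immediate early genes at -0.33.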

How the results depend on the processing

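No paired analysis was possible because no replicate number is shared between the groups. Limma called 0 genes for stress under GFP, DESeq2 39 and array weights 668, with 4039 at an unadjusted p under 0.05 under array weights. With the 3 tissue levels limma called 1 gene for stress under GFP and 1 for the interaction. In both cases this was Hcar1 (adjusted p = 0.0278 and 0.0480). Its stress difference under GFP was -2.57 in that fit and -0.19 in the main fit, and its groups overlapped. The interaction called 1 gene at an adjusted p under 0.1, 3 with DESeq2 and 2068 with array weights, and DESeq2 called 1 for stress under ZBTB7A. Unadjusted counts were 901 with the striatal level, 910 without the 5 libraries far in striatal level and 865 without GFP control 1 and 10. Groups did not overlap for 203 and 256 genes in the latter fits, where fewer libraries make overlap rarer by construction.

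Leaving out 1 library gave 1355 to 3036 genes at an unadjusted p under 0.05, 67 to 413 without overlap and 0 to 2 interaction calls. The highest came without GFP control 11, control 11 and stress 13. Zbtb7a ran from -0.03 to 0.12, Nr3c1 from -0.05 to 0.03, Crh from -0.06 to 0.14, Fkbp5 from -0.17 to 0.01 and Tsc22d3 from -0.20 to 0.01.

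List medians moved most when tissue levels entered the fit, which by construction holds constant the level of each list that entered it and of no other. With the 3 tissue levels they were 0.03 for striatal, 0.08 for septal, -0.01 for choroid plexus, -0.35 for upper layer, -0.39 for excitatory, -0.14 for interneuron, 0.44 for reactive astrocyte, 0.33 for microglia, 0.46 for activated microglia, 0.51 for oligodendrocyte, -0.02 for precursor, -0.82 for meningeal, -0.11 for glutamate receptor, -0.22 for vesicle, -0.14 for postsynaptic, -0.09 for neurotrophin, 0.19 for ribosomal, -0.10 for cholesterol and -0.04 for chaperone genes. With the striatal, choroid plexus and septal levels they were 0.08 for striatal, 0.09 for septal and 0.09 for choroid plexus, -0.33 for upper layer, -0.42 for excitatory, 0.10 for homeostatic and 0.38 for reactive astrocyte, 0.27 for microglia, 0.43 for activated microglia, 0.47 for oligodendrocyte, 0.03 for precursor, -0.13 for glutamate receptor, -0.24 for vesicle, -0.16 for postsynaptic, 0.19 for ribosomal, -0.08 for cholesterol and -0.05 for chaperone genes. With the striatal level alone they were 0.09 for striatal, -0.68 for septal, -1.56 for choroid plexus, 0.05 for excitatory, 3.5e-03 for vesicle and -0.04 for chaperone genes. Choroid plexus was -1.44 among genes with a mean of 50 or more, where fewer members are tested, and -1.19 without GFP control 1 and 10. Without the 5 far libraries striatal was -0.12 and upper layer -0.23.

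Named genes turned their sign as follows. With the 3 tissue levels, 43 did: Zbtb7a -0.03, Gfap 0.58, Otx2 0.44, Dlk1 0.09, Prlr 0.30, Zic1 0.09, Igsf1 0.04, Ido1 0.19, Drd1 0.13, Enpp2 0.16, Mal 0.45, Trf 0.53, Mbp 0.53, Slc17a7 -0.64, Nrgn -0.05, Kcnv1 -0.21, Cck -0.43, Neurod6 -0.25, Fezf2 -0.12, Thy1 -0.15, Bdnf -0.40, Slc32a1 0.11, Stx1a -0.32, Syp -0.22, Npy -0.04, Gad2 0.05, Gad1 0.05, Tacr3 0.28, Crh -0.64, Crhr1 -0.42, Fkbp5 0.02, Tsc22d3 0.04, Gabrq 3.6e-03, Grm5 0.02, Gja1 0.04, Slc4a4 0.04, C4b 0.74, Cx3cr1 0.15, Tlr2 0.14, Cyc1 -8.3e-04, Mvd -0.02, Pdia4 3.7e-03 and Traf1 0.04. With the striatal, choroid plexus and septal levels, 41 did: Zbtb7a -0.05, Gfap 0.55, Clic6 2.8e-03, Otx2 0.48, Zic4 9.0e-04, Prlr 0.09, Zic1 0.18, Igsf1 0.01, Ido1 0.16, Drd1 0.14, Enpp2 0.08, Mal 0.39, Trf 0.50, Mbp 0.50, Slc17a7 -0.67, Nrgn -0.08, Kcnv1 -0.23, Cck -0.42, Neurod6 -0.30, Fezf2 -0.19, Thy1 -0.17, Nptx2 -1.2e-03, Bdnf -0.39, Sv2c 0.05, Slc32a1 0.15, Stx1a -0.38, Syp -0.24, Gad2 0.11, Gad1 0.17, Tacr3 0.34, Crh -0.60, Crhr1 -0.37, Fkbp5 0.09, Tsc22d3 0.03, Gja1 0.05, Slc4a4 0.10, C4b 0.69, Cx3cr1 0.10, Tlr2 0.14, Mvd -0.02 and Traf1 0.07. With the striatal level 5 did: Pde10a 0.01, Drd1 0.18, Crh -0.41, Crhr1 -0.11 and Fkbp5 0.10. Without the 5 far libraries 3 did: Drd1 0.09, Crh -0.31 and Crhr1 -0.10. Without GFP control 1 and 10 also 3 did: Zbtb7a -0.01, Enpp2 0.01 and Nr3c1 0.04. With array weights Nr3c1 was 0.03. Where no construction is named, the cause was not tested. Over 28 alternatives the remaining 2972 values of named genes kept their sign and their side of the threshold, besides 77 that passed it under array weights or DESeq2. A kept sign is not a kept size. Over the alternatives other than leaving out 1 library, Folr1 shrank to as little as -0.21, Trpm3 to -0.06, Ngfr to -0.01 and Drd2 to -0.01. By the same measure Fbln5 shrank no further than -0.47 and Gpr63 no further than -0.35.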
